A study of Homo sapiens with 8 samples.

Results

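The CCAAT/enhancer-binding proteins CEBPA, CEBPB, CEBPD and CEBPG are transcription factors that bind DNA as dimers. Their mRNA was measured by all probe sets whose only gene symbol in the platform annotation was CEBPA (1 probe set), CEBPB (1), CEBPD (5) or CEBPG (2), 9 probe sets of 49495 and 4 genes of 18244. The genes were chosen because CEBPD was higher after MITF knockdown and CEBPB was lower after THZ1 in these same arrays. Their changes in both comparisons are therefore given as a description, with no test. The cells were SK-MEL-5, an established human melanoma line, on 8 Affymetrix arrays in 4 groups of 2. THZ1 cells received 250 nM of THZ1, a compound that binds covalently to CDK7 and blocks this transcriptional kinase, for 6 h in DMSO. The labels give the solvent as 25 uM in both the THZ1 group and the DMSO group. siMITF cells were transfected with siRNA that targets MITF, the master regulator of melanocyte identity, and siCtrl cells with a non-targeting siRNA. All groups came from this single line, and neither the time of harvest after transfection nor the duration of DMSO exposure is given. Whether replicate arrays stem from separate cultures is not stated, so errors and p values measure the spread between these arrays.

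C/EBP proteins share a basic region that contacts DNA and a leucine zipper through which they pair with each other or with related factors such as ATF4. CEBPA drives the differentiation of liver, fat and granulocytic cells and restrains cell division. CEBPB and CEBPD are switched on by inflammatory signals such as IL-6 and act early in fat cell formation, and CEBPB makes longer activating and shorter inhibitory proteins from the same mRNA, which a 3′ array cannot tell apart. CEBPG has no activation domain of its own and is best known as a partner of ATF4 in the response to amino acid shortage and oxidative stress.

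Stretches of 30 bases from 3 promoters are shown because they hold the only matches found to elements linked with these genes and with basal transcription. They are taken from RefSeq sequence (GRCh38.p14), 250 bases before to 50 bases after each annotated start, with 1 such entry for CEBPA and 2 each for CEBPB and CEBPG. The promoter of CEBPD was not analysed here. Capitals mark the matched letters.

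CEBPA, chr19:33302547-33302576, minus strand: cggcctgccgggTATAAAagctgggccggc
CEBPB, the second start, chr20:50190761-50190790, plus strand: gaggggccggcgTGACGcagcggttgctac
CEBPB, the second start, chr20:50190789-50190818, plus strand: acgggccgccctTATAAAtaaccgggctca
CEBPG, the second start, chr19:33374060-33374089, plus strand: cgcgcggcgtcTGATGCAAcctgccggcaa

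TATAAA, the core of the TATA box, began 30 bases before the CEBPA start and 29 bases before the second CEBPB start, and 11.5% of the 35116 promoter entries held it on either strand. TGACG, the core of the cAMP response element bound by CREB1 and ATF proteins, began 57 bases before the second CEBPB start and was present in 24.6% of entries. TGATGNAA, the composite element bound by a C/EBP protein paired with ATF4, began 42 bases before the second CEBPG start and was present in 3.62% of entries. Both strands were searched, and none of these letters overlapped another motif searched. The 5 entries of CEBPA, CEBPB and CEBPG held no match to the MITF E-boxes CATGTG (11.1% of entries) and CACGTG (7.26%), to the C/EBP core TTGCNNAA (10.5%) or to the STAT element TTCNNNGAA (7.66%). All 5 were rich in G and C, at 76.7% to 80.7% against a median of 58.7% over all entries. These matches describe the letters in the windows and not binding.

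Signals are deposited on a linear scale that was normalised to cell number, as the design text states, and are called per cell. The median signal of an array was 51.1 and 67.6 with THZ1 against 61.3 and 76.1 with DMSO, and 40.1 and 32.5 with siMITF against 51.1 and 59.3 with siCtrl. Replicate arrays thus differed in overall brightness, and with siMITF most genes were low. Changes are therefore also given relative to the median gene: the median deviation of the tested genes was subtracted from every array. The tested genes were the 11946 whose brightest probe set reached a mean signal of 39.2, and their median change per cell was -0.16 with THZ1 and -0.63 with siMITF on the log2 scale. The ERCC spike-in RNA had a median signal of 48.0 to 53.9 on the drug arrays and 27.6 to 30.7 on the siRNA arrays, so levels were compared only within each pair of groups. MITF had 1747 and 1168 with siMITF against 3436 and 3936 with siCtrl and differed by -0.72 (log2) relative to the median gene (limma, adjusted p = 3.25e-04, n = 2 per group). With THZ1, MITF had 3311 and 4178 against 4670 and 5669 with DMSO, a relative change of -0.27 (adjusted p = 0.0498) whose call was lost at a pseudocount of 1 (adjusted p = 0.0672), with no filter (0.104), with the gene's own variance (0.153) and without any 1 of the 4 drug arrays (0.0875 to 0.178), and which was -0.55 after quantile normalization. CDK7, the kinase that THZ1 binds, had 251 and 323 with THZ1 against 395 and 493 with DMSO and fell by 0.41 on the relative scale (adjusted p = 0.00148), but did not pass per cell (adjusted p = 0.105). Of 7 melanocyte markers with a probe set, 7 lay above 39.2, with a summed signal of 17391 to 45081 per array. Fewer markers of other cells did: 1 of 5 for keratinocytes (KRT10), 3 of 6 for fibroblasts (DCN, LUM and PDGFRB), 1 of 6 for leukocytes (CD68) and 1 of 4 for adipocytes (ADIPOQ), while the collagen genes COL1A1, COL1A2 and COL3A1 did not. Relative to the median gene DCN rose by 0.51 and LUM by 0.42 with THZ1 (adjusted p = 4.59e-04 and 0.00171), as did CD68 by 0.28 (adjusted p = 0.0158). Of the 7 melanocyte markers, 2 were lower with THZ1, MITF and the melanocyte factor SOX10, which fell by 1.16 (adjusted p = 1.60e-05). Another 3 were higher: MLANA by 0.26, TYR by 0.28 and S100B by 0.30 (adjusted p = 0.0347, 0.0128 and 0.00884). With siMITF, LUM fell by 0.43 and CD68 by 0.24 (adjusted p = 0.00124 and 0.0277), and DCN rose by 0.20 and SOX10 by 0.52 (adjusted p = 0.0405 and 0.00165). S100B rose by 0.90 and TYR by 0.36 (adjusted p = 2.69e-05 and 0.00332), and of the melanocyte markers only MITF was lower. Per cell, 1 of the 7 melanocyte markers was lower with THZ1 and 3 with siMITF, and 0 were higher. Of all tested genes, 10% were lower per cell with THZ1 and 63.4% with siMITF. Relative to the median gene, 21.1% of them were lower and 17.7% higher with THZ1, and 24.7% lower and 19.5% higher with siMITF. The 6 fibroblast markers summed to 2660 and 3447 with THZ1 against 2370 and 2863 with DMSO, and to 976 and 734 with siMITF against 1544 and 1866 with siCtrl. The part of these markers in the results was not tested.

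CEBPD was the member that differed in opposite directions in the 2 comparisons. Its brightest probe set, 11752869_s_at, had a signal of 893 and 688 with siMITF against 344 and 387 with siCtrl. Both siMITF arrays lay above both siCtrl arrays, 2.10-fold higher per cell on the log2(signal + 16) scale (log2 change 1.07, SE 0.25, n = 2 per group). Relative to the median gene the log2 levels were 10.26 and 10.17 with siMITF against 8.55 and 8.47 with siCtrl, so the change was 1.70 (SE 0.086) or 3.26-fold. In bulk RNA, fewer cells with a transcript and less of it per cell cannot be told apart, here and in the values that follow. With THZ1 the same probe set had a signal of 253 and 313, against 543 and 766 with DMSO. Both THZ1 arrays lay below both DMSO arrays, 2.22-fold lower per cell (log2 change -1.15, SE 0.25) with a change of -0.95 relative to the median gene (SE 0.086).

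The other 4 CEBPD probe sets had the same directions at lower signals. With siMITF, 11743135_s_at had 784 and 664 against 218 and 290 with siCtrl, and 11743136_x_at had 480 and 385 against 141 and 182. The dimmer 11764029_at had 390 and 315 with siMITF against 120 and 142 with siCtrl, and 11764030_x_at had 331 and 277 against 94.1 and 108. No siMITF array overlapped a siCtrl array on any of the 5. With THZ1, 11743135_s_at had 193 and 269 against 449 and 550 with DMSO, and 11743136_x_at had 118 and 156 against 262 and 346. For 11764029_at the THZ1 arrays had 70.1 and 97.6 against 158 and 188 with DMSO, and for 11764030_x_at 63.0 and 81.8 against 117 and 151. The THZ1 arrays were below the DMSO arrays on all 5. Over the 5 probe sets the log2 change with siMITF ran from 1.07 to 1.46 per cell (2.10-fold to 2.76-fold) and from 1.70 to 2.10 relative to the median gene. With THZ1 it ran from -1.15 to -0.76 per cell (1.70-fold to 2.22-fold lower) and from -0.95 to -0.56 relative to the median gene. The brightest probe set thus had the smallest change with siMITF and the largest with THZ1. Across the 8 arrays the relative log2 profiles of the 5 probe sets correlated at r = 0.967 to 0.999 over 10 pairs, which share arrays and target and are no separate evidence.

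**Figure D1:**
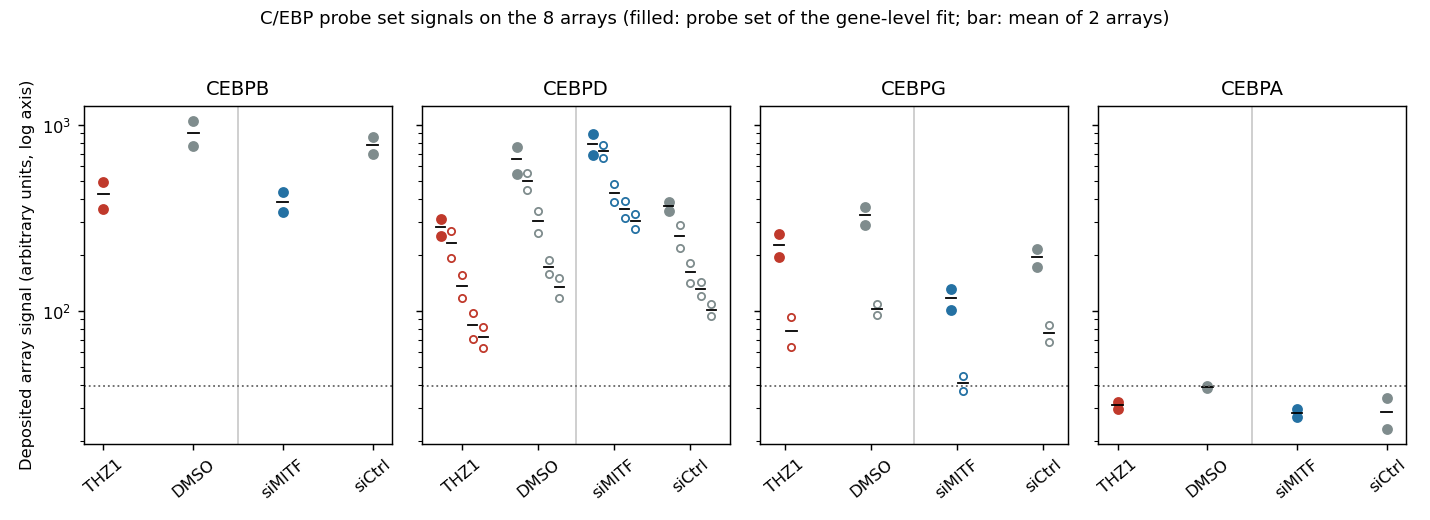
Deposited signal of each C/EBP probe set on each of the 8 arrays (log axis, arbitrary units), with THZ1 left of DMSO and siMITF left of siCtrl. Filled points are the probe set that stands for the gene, open points the other probe sets, bars the mean of 2 arrays, and the dotted line the signal of 39.2 below which a gene was not tested. CEBPD is low with THZ1 and high with siMITF on all 5 probe sets, CEBPB is low with both, and CEBPA lies near the dotted line.

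CEBPB was lower in both comparisons. Its single probe set, 11743077_s_at, had a signal of 354 and 493 with THZ1 against 767 and 1049 with DMSO. The THZ1 arrays did not overlap the DMSO arrays and were 2.10-fold lower per cell (log2 change -1.07, SE 0.25, n = 2 per group). Relative to the median gene the log2 levels were 8.57 and 8.62 with THZ1 against 9.40 and 9.54 with DMSO, a change of -0.87 (SE 0.077). With siMITF its signal was 433 and 340, against 694 and 864 with siCtrl, 1.98-fold lower per cell (log2 change -0.98). Most of that difference was shared with the median gene: relative to it the siMITF arrays had 9.24 and 9.18 and the siCtrl arrays 9.53 and 9.59, a change of -0.35 (SE 0.077). The siMITF arrays still lay below the siCtrl arrays on that scale. The size of this change depended on the setting: it was -0.98 with centring on the ERCC probe sets and -0.10 after quantile normalization.

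CEBPG differed less. Its brighter probe set, 11717693_at, had a signal of 195 and 260 with THZ1 against 291 and 363 with DMSO, which is -0.50 in log2 per cell (SE 0.25) and -0.30 relative to the median gene (SE 0.068). The relative log2 levels were close within each group, at 7.76 and 7.74 with THZ1 against 8.05 and 8.05 with DMSO. Centring on the ERCC probe sets gave -0.50 and quantile normalization -0.17 with THZ1. With siMITF the signal was 132 and 102 against 173 and 216 with siCtrl, a change of -0.67 per cell, and of -0.03 relative to the median gene (SE 0.068). On the relative scale the siMITF arrays, at 7.64 and 7.59, overlapped the siCtrl arrays, at 7.62 and 7.67. The dimmer probe set 11717694_a_at had 63.6 and 92.5 with THZ1 against 95.4 and 109 with DMSO, and 44.8 and 36.8 with siMITF against 68.1 and 83.8 with siCtrl. Its relative changes were -0.15 with THZ1 and -0.06 with siMITF, and its profile over the 8 arrays correlated with that of the brighter one at r = 0.737.

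CEBPA was near the low end of the array's range and was not tested. Its probe set 11726294_s_at had a signal of 29.7 and 32.3 with THZ1 against 39.3 and 38.6 with DMSO, which is -0.23 in log2 per cell. With siMITF it had 29.6 and 27.0 against 23.2 and 33.9 with siCtrl, and these arrays overlapped. Its relative values, -0.03 with THZ1 and 0.63 with siMITF, include the array offset that centring subtracts. The direction of the THZ1 value turned under other settings.

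By probe sets, 9 of 9 had both THZ1 arrays below both DMSO arrays per cell, where 25.7% of all probe sets with 1 symbol did, and 8 of 9 relative to the median gene, where 17.6% did. On neither scale did any lie above DMSO, where 4.31% of all probe sets did per cell and 35.9% did on the relative scale. With siMITF, 5 of 9 lay above siCtrl per cell, where 2.44% did, 3 lay below, where 76% did, and 1 overlapped. Relative to the median gene 6 lay above siCtrl (57.3% of all probe sets), 2 below (23.5%) and 1 overlapped. The 5 CEBPD probe sets share a transcript and make up most of these counts, and the genes were chosen on these comparisons.

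**Figure D2:**
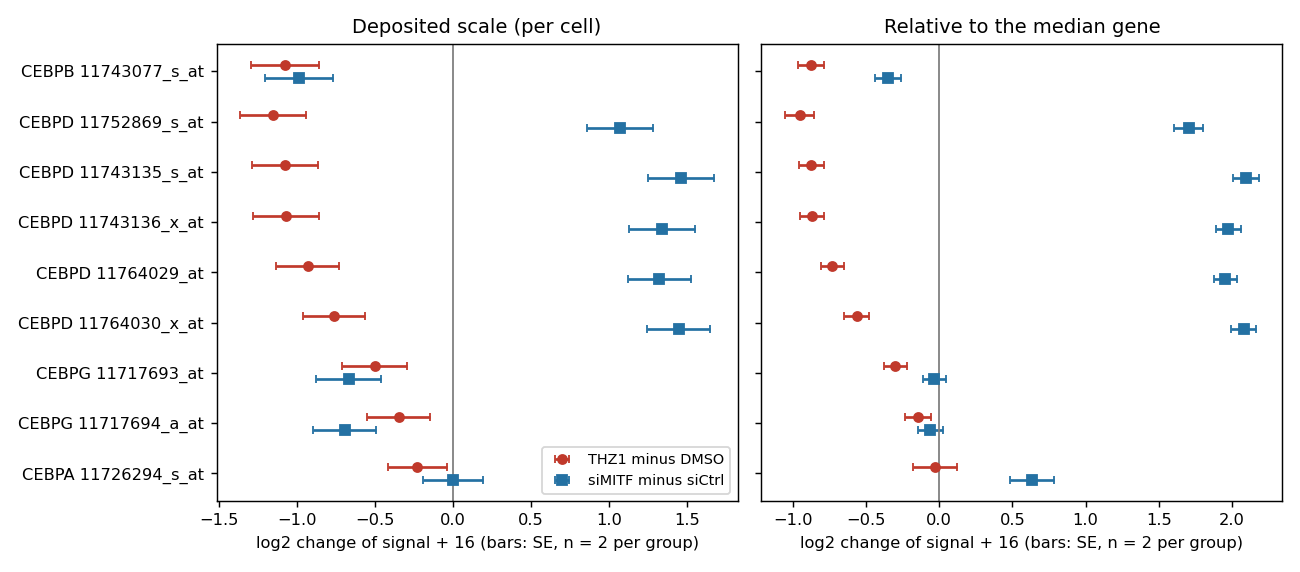
Log2 change of signal + 16 for each C/EBP probe set on the deposited scale (left) and relative to the median gene (right); red circles are THZ1 minus DMSO and blue squares siMITF minus siCtrl. Bars are the SE of a limma fit over all probe sets (n = 2 per group), which differs slightly from the SE of the gene-level fit given in the text. The 5 CEBPD probe sets lie on opposite sides of 0 in the 2 comparisons, and CEBPB lies below 0 in both.

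Placed among the 11946 tested genes, CEBPD had the 224th lowest change with THZ1 and the 8th highest with siMITF. CEBPB had the 302nd lowest change with THZ1 and the 1763rd lowest with siMITF, and CEBPG the 2158th and the 5430th lowest. With THZ1 the changes of CEBPB and CEBPD were close: they differed by 0.08 (SE 0.086, from the 2 arrays of each group), and the arrays overlapped in this difference. Minus the change of CEBPG, the change was -0.57 (SE 0.079) for CEBPB and -0.65 (SE 0.10) for CEBPD, and the arrays did not overlap. With siMITF the change of CEBPB minus that of CEBPD was -2.05 (SE 0.074), and minus that of CEBPG it was -0.32 (SE 0.0084). The change of CEBPD minus that of CEBPG was 1.74 (SE 0.068). These differences do not depend on the array offset, since each compares genes on the same array. An SE from 2 arrays a group is itself imprecise: the fit over all genes gave 0.077 for CEBPB and 0.068 for CEBPG. Other settings can move the differences: after quantile normalization the siMITF change was -0.10 for CEBPB and 0.022 for CEBPG.

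Relative to the median gene, 2520 of the tested genes were lower with THZ1 and 2329 were higher with siMITF in the limma fit at an adjusted p under 0.05. Both calls held for 525 genes, 20.8% of those lower with THZ1 and 22.5% of those higher with siMITF. Over all tested genes, 19.5% were higher with siMITF and 21.1% lower with THZ1, so both shares of the overlap lie near these. No tested gene other than CEBPD was both as low with THZ1 and as high with siMITF as CEBPD by its brightest probe set. The zinc finger gene KLF9 came close, at -1.02 against -0.95 with THZ1 and 1.65 against 1.70 (SE 0.086) with siMITF. Its high place with siMITF follows from the way it was chosen, and its joint place was not tested.

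**Figure D3:**
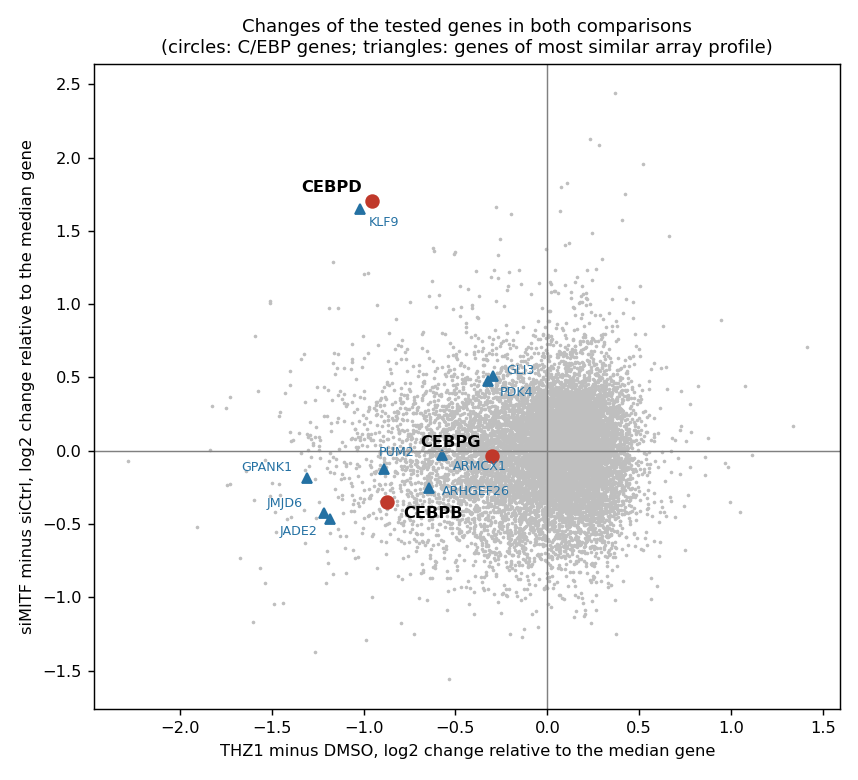
Log2 change relative to the median gene with THZ1 (horizontal axis, THZ1 minus DMSO) and with siMITF (vertical axis, siMITF minus siCtrl) for the 11946 tested genes in grey. Red circles are the tested C/EBP genes and blue triangles the 3 genes whose profiles over the 8 arrays were most like each of them. CEBPD stands at the upper left with KLF9 beside it, CEBPB at the lower left, and CEBPG near the horizontal line at 0.

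The genes whose relative log2 profile was most like that of a C/EBP gene were found by Pearson's r over the 8 arrays, after the mean of the drug arrays or of the siRNA arrays was subtracted. The measure reads the shape and not the size of a profile, and the arrays of a group share their condition. For CEBPD they were GLI3, a transcription factor of the hedgehog pathway (r = 0.994), PDK4, a kinase that shuts pyruvate dehydrogenase (0.992), and KLF9, a zinc finger factor induced by glucocorticoids (0.992). KLF9 was also like CEBPD in size, with a signal of 248 and 317 with THZ1 against 630 and 720 with DMSO, and 664 and 537 with siMITF against 258 and 320 with siCtrl. Its relative changes were -1.02 with THZ1 and 1.65 with siMITF, while those of GLI3 were -0.29 and 0.51 and those of PDK4 -0.33 and 0.47. A dimmer KLF9 probe set gave -0.64 and 1.58, and the 2 dimmest gave -0.06 and -0.14 with THZ1 and 0.66 and 1.16 with siMITF. For CEBPB the most alike were JMJD6, a hydroxylase of the JmjC family (r = 0.998), JADE2, a subunit of a histone acetyltransferase complex (0.998), and ARHGEF26, a guanine nucleotide exchange factor (0.998). Relative changes with THZ1 were -1.21 for JMJD6, -1.18 for JADE2 and -0.64 for ARHGEF26. With siMITF they were -0.42, -0.47 and -0.25. For CEBPG they were GPANK1, ARMCX1 and the RNA-binding protein PUM2 (r = 0.997 each), with relative changes of -1.31, -0.57 and -0.89 with THZ1. Other probe sets did not follow for JADE2, where 4 of 5 gave 0.04 to 0.17 with THZ1, for JMJD6, where the other gave 0.34, and for PUM2, where both others gave 0.02 and 0.07.

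The genes around the C/EBP factors were followed in 6 lists, and these genes were tested. Over all tested genes relative to the median gene, 21.1% were lower and 17.7% higher with THZ1, and 24.7% were lower and 19.5% higher with siMITF (limma, adjusted p under 0.05, n = 2 per group). The median change was 0.04 with THZ1 and 0.0014 with siMITF. Per cell the shares were 10% lower and 0.0753% higher with THZ1, and 63.4% lower and 0.326% higher with siMITF. Changes below are relative to the median gene unless per cell is written, and adjusted p values are those of limma.

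Among other C/EBP family genes and leucine zipper partners, 22 of 26 were tested. With THZ1, 8 were lower and 2 higher, with a list median of -0.17, and 2 were lower per cell. CREB1, which binds the cAMP response element, had a signal of 59.4 and 86.4 with THZ1 against 189 and 261 with DMSO. It fell by 1.24 (SE 0.078, adjusted p = 5.34e-06), with a per-cell change of -1.44, and 5 of its 6 other probe sets gave -1.56 to -0.74. FOS, a partner in AP-1, had 911 and 1286 with THZ1 against 707 and 766 with DMSO and rose by 0.75 (adjusted p = 1.19e-04), while its per-cell change of 0.55 did not pass (adjusted p = 0.161). ATF4, the partner of CEBPG in stress, fell by 0.44 (adjusted p = 7.95e-04) and JUNB rose by 0.42 (adjusted p = 0.0012), with per-cell adjusted p values of 0.0769 for ATF4 and 0.835 for JUNB. CEBPZ, a nucleolar protein that carries the family name but has no leucine zipper, fell by 0.48 with THZ1 (adjusted p = 0.00188). CEBPE, the granulocytic member, had signals of 14.7 to 31.9 on the 8 arrays and was not tested.

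With siMITF, 3 genes of this list were lower and 5 higher, with a median of 0.09, whereas per cell 12 were lower and the median was -0.55. FOS had 224 and 195 with siMITF against 492 and 594 with siCtrl and fell by 0.67 (adjusted p = 2.23e-04), opposite to its change with THZ1, and its 3 other probe sets gave -0.73 to -0.64. CEBPZ had 469 and 370 with siMITF against 814 and 1067 with siCtrl and fell by 0.50 (adjusted p = 0.00133). JUN rose by 0.44 and HLF, a liver leucine zipper factor, by 0.33, but both were dim, and their per-cell signals were not above those with siCtrl. JUN had 72.0 and 59.0 with siMITF against 72.0 and 81.2 with siCtrl, and its per-cell change was -0.19. HLF had 29.6 and 25.6 with siMITF against 31.3 and 45.2 with siCtrl, with a per-cell change of -0.31. The calls of both were lost with no filter on low signals, at adjusted p values of 0.079 for JUN and 0.331 for HLF, and that of HLF also without siCtrl array 1 or siMITF array 2 (adjusted p = 0.0603 and 0.0832).

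Of 32 genes that signal to CEBPB and CEBPD, 27 were tested. With THZ1, 9 were lower and 5 higher, with a median of -0.07, and 5 were lower per cell. TNFRSF1A, a receptor for tumour necrosis factor, had 224 and 315 with THZ1 against 486 and 643 with DMSO and fell by 0.83 (adjusted p = 2.87e-05). The cytokine IL6 had 169 and 219 with THZ1 against 361 and 432 with DMSO and fell by 0.78 (adjusted p = 3.37e-05), though its dimmer probe set gave 0.01. SMAD3, which carries transforming growth factor signals, fell by 0.71 and the transcription factor SP1 by 0.66. These 4 also passed per cell, with changes of -1.03 to -0.86. Of their dimmer probe sets, 1 of 3 for TNFRSF1A gave 0.32, 1 of 2 for SP1 gave 0.27, and 2 of 4 for SMAD3 gave 0.04 and 0.10.

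With siMITF, 4 of these 27 genes were lower and 7 higher, with a median of 0.10, whereas per cell 14 were lower and the median was -0.53. The receptor IL6R had 265 and 206 with siMITF against 476 and 606 with siCtrl and fell by 0.51 (adjusted p = 4.60e-04). IL6 rose by 0.46 (adjusted p = 7.22e-04), STAT3, which transmits the IL-6 signal to the CEBPD gene, by 0.53 (adjusted p = 0.00115), and PIAS3, an inhibitor of STAT3, by 0.49 (adjusted p = 0.00141). These 3 rises were relative only: per cell the changes were -0.17 for IL6, -0.10 for STAT3 and -0.15 for PIAS3, and none passed, at adjusted p values of 0.520, 0.698 and 0.575. With no filter on low signals IL6 and PIAS3 no longer passed, at adjusted p values of 0.0556 and 0.0506.

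Of 33 kinases, cofactors and turnover factors that act on C/EBP proteins, 29 were tested. With THZ1, 6 were lower and 7 higher, with a median of 0.11. Per cell 0 of the 29 passed in limma, with 4 at an unadjusted p under 0.05, and 0 passed with each gene's own variance. TRIB2, a pseudokinase that brings CEBPA protein to the ubiquitin ligase COP1, fell by 0.46 (adjusted p = 0.00195). COP1 fell by 0.34 (adjusted p = 0.00325), though its dimmer probe set gave -0.07. TRIB3, a related pseudokinase induced in stress, fell by 0.48 (adjusted p = 6.18e-04). The per-cell adjusted p was 0.0634 for TRIB2, 0.167 for COP1 and 0.0534 for TRIB3. PCBP2, an RNA-binding protein, rose by 0.34 (adjusted p = 0.00421), a call lost with no filter (adjusted p = 0.101), after quantile normalization (0.164) and per cell (0.936). With siMITF, 9 of the 29 were lower and 3 higher, with a median of -0.11, whereas per cell 23 were lower and the median was -0.74. CDK2, which binds CEBPA, had 738 and 658 with siMITF against 1792 and 2233 with siCtrl and fell by 0.87 (adjusted p = 5.39e-05). CDK4 had 1002 and 863 with siMITF against 2318 and 2756 with siCtrl and fell by 0.79 (adjusted p = 7.44e-05). The cap-binding factor EIF4E fell by 0.68 and PCBP2 rose by 0.50, with a per-cell change of PCBP2 of -0.14. With the mean of all probe sets in place of the brightest, neither passed (adjusted p = 0.0785 for EIF4E and 0.0651 for PCBP2).

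**Figure D4:**
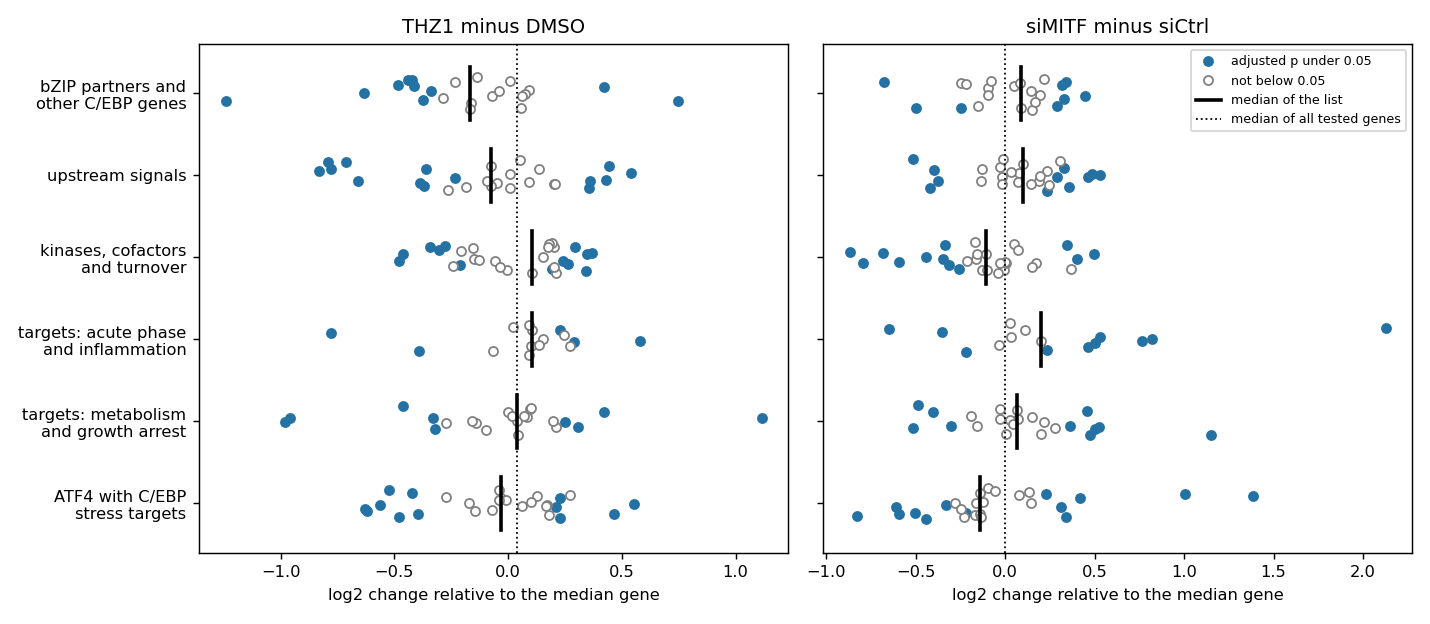
Log2 change relative to the median gene for the tested genes of the 6 lists, with THZ1 minus DMSO on the left and siMITF minus siCtrl on the right; each point is a gene, filled at a limma adjusted p under 0.05. Heavy bars are list medians and the dotted line is the median of all tested genes. SERPINA3 stands apart at 2.13 with siMITF, and CREB1 (-1.24) and ID2 (1.11) lie at the ends with THZ1.

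Reported C/EBP targets were followed in 2 lists. Of 36 acute phase and inflammation genes 15 were tested, since most were too dim in these cells. With THZ1, 2 were lower and 3 higher, with a median of 0.10, and 1 was lower per cell. Besides IL6, the chemokine CXCL1 fell by 0.39 (adjusted p = 0.00225), the mitochondrial superoxide dismutase SOD2 rose by 0.58 (adjusted p = 6.36e-04) and the protease inhibitor TIMP1 rose by 0.29 (adjusted p = 0.0104). Per cell these 3 did not pass, at adjusted p values of 0.116 for CXCL1, 0.461 for SOD2 and 0.969 for TIMP1. The relative call of TIMP1 was also lost without THZ1 array 2 (adjusted p = 0.0675), without DMSO array 1 (0.058), with no filter (0.206) and after quantile normalization (0.083). With siMITF, 3 of the 15 were lower and 7 higher, with a median of 0.20, whereas per cell 6 were lower and 1 higher and the median was -0.43. SERPINA3, an acute phase protease inhibitor, had 564 and 432 with siMITF against 141 and 192 with siCtrl. It rose by 2.13 (SE 0.080, adjusted p = 5.58e-07) and per cell by 1.49 (adjusted p = 1.21e-07), and its other probe set gave 2.51. A2M, another protease inhibitor, rose by 0.82 (adjusted p = 8.82e-05) and TIMP1 by 0.50 (adjusted p = 4.82e-04), with per-cell changes of 0.19 and -0.13 that did not pass. The collagenase MMP1 had 43.9 and 35.3 with siMITF against 104 and 136 with siCtrl and fell by 0.65 (adjusted p = 7.17e-04).

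Of 34 targets in fat cell formation, metabolism and growth arrest, 23 were tested. With THZ1, 5 were lower and 4 higher, with a median of 0.04, and per cell 2 were lower and 1 higher. ID2, which blocks helix-loop-helix factors by pairing with them, had 1535 and 1899 with THZ1 against 789 and 1022 with DMSO and rose by 1.11 (adjusted p = 7.47e-06), also per cell (0.91, adjusted p = 0.00416). The cell cycle inhibitor CDKN1B had 165 and 245 with THZ1 against 431 and 527 with DMSO and fell by 0.98 (adjusted p = 1.18e-05), as did KLF15, a factor of fat and liver metabolism, by 0.96 (adjusted p = 3.13e-05), and CDKN1A by 0.46 (adjusted p = 0.00109; 0.0635 per cell). With siMITF, 4 of the 23 were lower and 6 higher, with a median of 0.06, whereas per cell 13 were lower and the median was -0.57. TXNIP, which binds thioredoxin and limits glucose uptake, had 289 and 227 with siMITF against 161 and 187 with siCtrl and rose by 1.15 (adjusted p = 1.08e-05), while its per-cell change of 0.52 did not pass (adjusted p = 0.0528). CDKN1A rose by 0.53 (adjusted p = 4.61e-04), with a per-cell change of -0.11. The cell cycle factor E2F1 fell by 0.51 and ODC1, the rate-limiting enzyme of polyamine synthesis, by 0.49.

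The last list held 28 stress genes controlled by ATF4 together with C/EBP proteins, and 27 were tested. With THZ1, 7 were lower and 5 higher, with a median of -0.03, and 4 were lower per cell. The amino acid transporter SLC38A2 had 1090 and 1452 with THZ1 against 2001 and 2528 with DMSO and fell by 0.63 (adjusted p = 9.88e-05). DDIT4, an inhibitor of mTOR complex 1, had 222 and 359 with THZ1 against 456 and 574 with DMSO and fell by 0.62 (adjusted p = 0.00103), TRIB3 fell as given above, and the oxidase ERO1A rose by 0.47 (adjusted p = 0.00167; 0.735 per cell). With siMITF, 7 of the 27 were lower and 6 higher, with a median of -0.14, whereas per cell 19 were lower and 1 higher and the median was -0.77. DDIT4 had 790 and 693 with siMITF against 370 and 507 with siCtrl and rose by 1.38 (adjusted p = 1.91e-05), also per cell (0.75, adjusted p = 0.00615). SESN2, another brake on mTOR complex 1, rose by 1.003 (adjusted p = 2.27e-05), with a per-cell change of 0.37 that did not pass. The dimmer SESN2 probe set gave 0.56. The serine enzyme SHMT2 fell by 0.61 and the transporter subunit SLC3A2 by 0.59, with adjusted p values of 1.53e-04 and 1.92e-04.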

How the data were processed

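The authors deposited 1 signal (intensity) per probe set and array, on a linear scale, summarised with MAS5 per the submitters' processing notes and normalised to cell number according to the design text; the calculation is not given in the sources used here. ERCC spike-in RNA was matched to the number of cells, per the labels' protocols. Of 49495 probe sets, 45284 had 1 gene symbol, 1333 had several and were not used, and 45214 matched the reference gene table (GRCh38.p14).

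Signals were analysed as log2(signal + 16), which pulls changes of dim genes toward 0. The brightest single-symbol probe set stood for each gene, which was tested if its mean reached the 40th percentile. The fit used limma 3.58.1 (R 4.3.3), group means over all 8 arrays and Benjamini-Hochberg adjustment over 11946 genes. Per cell the prior degrees of freedom were infinite, so all genes share an SE of 0.25 that is taken as known, which makes small per-cell p values too small; on the relative scale a prior of 5.97 was added to 4 residual degrees of freedom. The code was tested on simulated data. Precision is limited by the number of arrays.

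The members and lists were chosen with earlier results of these data known. Named genes were, beside the members, MITF and CDK7, up to 4 called genes per list and comparison with the lowest adjusted p, and the 3 genes most like each tested member. IL6, TRIB3, DDIT3, ATF3, ATF5 and IL1B stand in more than 1 list. Listed genes without a probe set of their own were not analysed here. Alternatives were other pseudocounts, filters, probe set summaries, quantile normalization, ERCC centring, each gene's own variance, fewer arrays and a replicate block.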

Additional observations from a re-analysis of the deposited data

How the results depend on the processing

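CEBPD stayed higher with siMITF and lower with THZ1, and CEBPB lower with both, under every alternative run on both scales, but the relative CEBPB change with siMITF ran from -0.98 to -0.10. The relative CEBPD change with siMITF moved from 1.70 to 1.83 and 1.45 at pseudocounts of 1 and 64, 1.52 with no filter, 1.81 with the filter at the 60th percentile, 1.92 with the mean of probe sets (1.33 per cell), 1.99 after quantile normalization on both scales, and 1.08 with centring on the ERCC probe sets. That centring gave -1.07 for CEBPB with THZ1. The relative CEBPG change with siMITF turned to 0.022 under quantile normalization (both scales) and 0.068 with the filter at the 60th percentile. CEBPA turned to 0.054 (THZ1, relative) and -0.0015 (siMITF, per cell) at a pseudocount of 64, and leaving out an array gave -0.19 to 0.14 (THZ1, relative) and -0.17 to 0.18 (siMITF, per cell).

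Per-cell changes with siMITF became positive under quantile normalization, which removes the shared offset, for JUN (0.33), IL6 (0.67), STAT3 (0.80), PIAS3 (0.57), PCBP2 (0.52), TIMP1 (0.75), CDKN1A (0.75), CDK7 (0.20), GLI3 (0.37), PDK4 (0.56), ARMCX1 (0.21 on both scales) and PUM2 (0.10). The same setting called 4650 genes with THZ1 (2220 lower, 2430 higher, against 1199 and 9) and 4544 with siMITF (2334 lower, 2210 higher, against 7568 and 39). With each gene's own variance limma called 0 genes per cell in both comparisons, with 1444 (THZ1) and 5706 (siMITF) at an unadjusted p under 0.05, and 3230 and 3688 genes on the relative scale. With no filter 2567 relative THZ1 calls were made (2090 lower, 477 higher, against 2520 and 2112).

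Leaving out 1 array gave 250 to 2102 calls per cell with THZ1 (main 1208; 250 without DMSO array 2, 368 without THZ1 array 1, 2102 without THZ1 array 2) and 1771 to 7538 with siMITF (main 7607; 1771 without siCtrl array 2, 1850 without siMITF array 2). On the relative scale it gave 3170 to 3677 with THZ1 (main 4632) and 3252 to 4591 with siMITF (main 5275; 3252 without siMITF array 2, 3456 without siCtrl array 2). The lone array is assumed to vary like the other groups.

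List counts on the relative scale moved. With no filter 1 upstream signal and 0 kinases and cofactors were higher with THZ1. With siMITF 0 partners, 1 upstream signal, 1 kinase or cofactor and 2 stress genes were higher, beside 2480 of all genes. So were 12 of 36 acute phase genes (main 7 of 15). Lower were 14 kinases and cofactors and 14 stress genes, beside 4048. With each gene's own variance 4 partners and 3 growth arrest genes were lower with THZ1, beside 1879. With siMITF 1 partner, 1 kinase or cofactor and 3 stress genes were higher, beside 1423. With the 60th percentile filter 11 upstream signals and 6 kinases and cofactors were higher with siMITF, beside 2120 of all tested there. Causes were not tested. All-gene calls fell too with 1 array fewer. With 1 array fewer the THZ1 counts were 4 to 7 partners lower (4 without DMSO array 1), 3 to 6 kinases and cofactors lower and 3 to 5 higher (3 and 3 without DMSO array 1), 3 to 6 growth arrest genes lower (3 without THZ1 array 2) and 2 to 4 higher (2 without DMSO array 2), and 2 stress genes higher whichever array was left out. The siMITF counts were 1 to 4 partners higher (1 without siMITF array 2), 1 to 4 kinases and cofactors higher (1 without siCtrl array 1), 1 to 3 acute phase genes lower (1 without siCtrl array 2 or siMITF array 2) and 2 to 4 stress genes higher (2 without siMITF array 2).

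No label says that replicate numbers mark a batch. Gene deviations of same-number arrays correlated at r = 0.11 (drug) and -0.18 (siRNA), blind to array-wide shifts. With replicate number as a block, 1273 (THZ1) and 7787 (siMITF) genes were called per cell and 4493 and 5189 on the relative scale. Array 2 was dimmer only with siMITF, so this block cannot remove such shifts.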
